A study of Drosophila melanogaster with 96 samples.

Results

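Achl, named Achilles, is a clock-controlled gene of Drosophila melanogaster, and the experiment described here set heads of adult females that carried RNAi against it beside heads of control females. Of the 96 libraries of the series, 48 belong to it: 24 labelled Female_Achl_RNAi and 24 labelled Female_Control, taken as those 2 sets of columns of the deposited table and set side by side by circadian time. The main fit compared the groups and did not pair their libraries. In each group 1 library was made every 2 h from CT24 to CT70, where CT is circadian time counted in hours, so that 2 days of 12 libraries each were covered. The flies were 3 to 5 days old, were reared at 25 °C with 12 h of light a day, and had been in constant darkness for 24 h before sampling began and throughout it. Each library came from a pool of 7 to 8 heads and from 200 ng of RNA. The labels name neither the driver of the RNAi construct nor the construct carried by the controls, so where in the head the RNAi acted, and what the controls share with it, are not known here. Male heads of the same genotypes, 48 libraries, serve below only to show where the female effect differed.

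Insects answer microbes with secreted antimicrobial peptides, made mainly by the fat body and by blood cells. A pair of pathways drives their genes in flies: the Imd pathway, which runs from peptidoglycan recognition proteins such as PGRP-LC to the NF-kappaB factor Relish, and the Toll pathway, which runs from a cascade of serine proteases in the blood to the factors Dif and Dorsal. Diptericins, attacins and cecropins are classical Imd readouts, while drosomycin and the short Bomanin peptides are classical Toll readouts. The head also holds the compound eye, whose outer photoreceptors make the rhodopsin encoded by ninaE in large amounts.

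Values are TPM, transcript abundances per length that sum to the same total in every library, as deposited, and read depth is therefore unknown. Changes are RNAi minus control differences on a scale of log2 of scaled TPM plus a pseudocount of 1, given with standard errors (SE) from limma fitted to all 10568 genes that reached 1 TPM in 24 or more of the 96 libraries, and with p-values adjusted over those genes by the Benjamini-Hochberg method. The scaling mattered: size factors averaged 0.922 ± 0.0978 in RNAi libraries and 1.04 ± 0.0902 in control libraries (SD, n = 24 each), and peptide genes alone filled more of each RNAi library. The 40 genes of the antimicrobial and immune-induced peptide lists held 3.91%, 7.84% and 16.2% of all TPM in the lowest, median and highest RNAi library, against 1.29%, 1.57% and 3.64% in control libraries. Without scaling the median gene had a log2 change of -0.18, and with it -0.02. The abundance of mt:lrRNA, a mitochondrial ribosomal RNA, split the female libraries, with 15 RNAi and 14 control libraries under 50000 TPM (low-mt libraries) and 9 RNAi and 10 control libraries above it (high-mt libraries). All 12 libraries of the second day in each group were low-mt, so the day and this split cannot be told apart for most libraries, while day 1 held low-mt libraries of both groups, 3 RNAi and 2 control. As a group has 1 library at each CT, the spread behind each p-value is that of libraries around the fitted courses, not of replicates.

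In all, 2328 of the 10568 tested genes passed an adjusted p of 0.05, 1195 higher (11.3%) and 1133 lower (10.7%) in RNAi heads. With TPM as deposited the split was 497 higher (4.70%) and 5885 lower (55.7%). Most changes were small: 538 of the higher genes and 738 of the lower ones changed by less than 0.25 on the log2 scale. Of the larger changes, 133 genes rose 2-fold or more (1.26%) and 20 fell 2-fold or more (0.189%), with 34 genes rising by 2 to 4 on the log2 scale and 26 by more than 4, while 2 fell by 2 to 4 and 0 by more. Among the 133 were 36 members of the immune lists, which hold 106 of the 10568 tested genes. On chromosome arm 2R, which holds 2177 of the tested genes, lay 58 of the 133. Every RNAi library lay above every control library in 30 genes (0.284%) and below every control library in 14 (0.132%). Overlap between groups, here and below, was judged on TPM as deposited, where the median gene was lower in RNAi heads (log2 change -0.18).

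**Figure D1:**
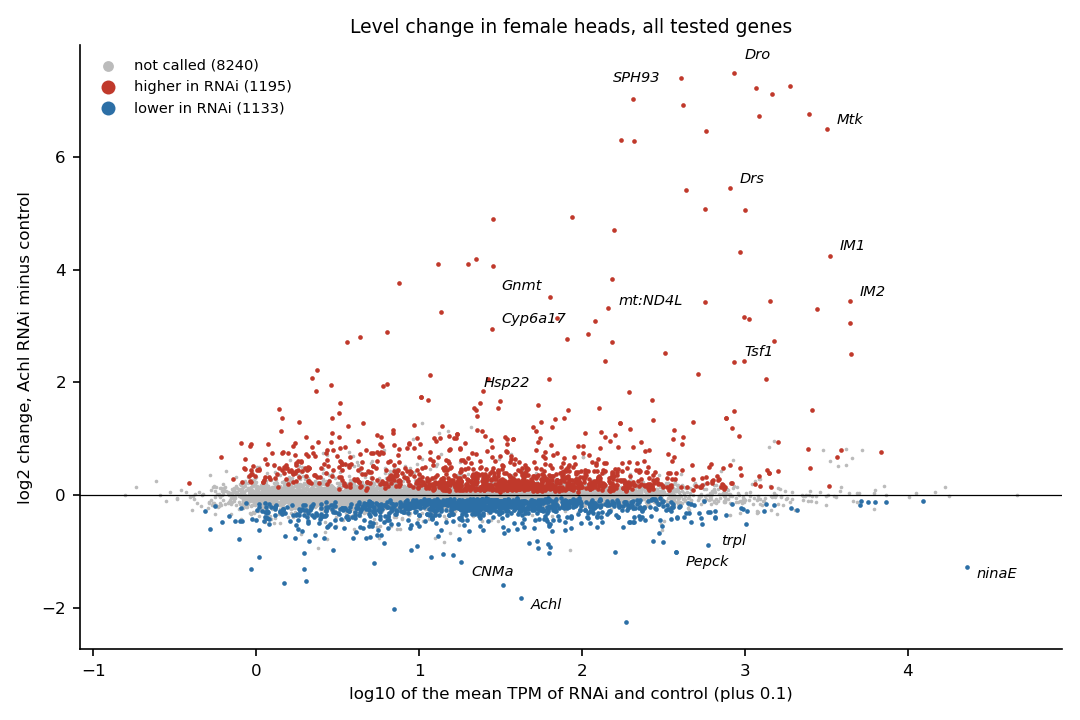
Log2 change of each of the 10568 tested genes in female heads (RNAi minus control, vertical axis) against its mean TPM over both groups (log10 axis). Red points were higher in RNAi heads (1195), blue points lower (1133) and grey points did not pass (8240); the points above 4 include Dro, DptA, Mtk, Drs and IM1, and ninaE is the most abundant blue point.

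The target itself came first. Achl (FBgn0033936, dm6 chromosome 2R, 14420324 to 14424764) had a lowest, median and highest value of 10.1, 15.9 and 21 TPM in RNAi heads, against 29.4, 69.5 and 105 TPM in control heads. The highest RNAi library was thus below the lowest control library, and the RNAi mean was 22.8% of the control mean (15.6 ± 2.95 against 68.3 ± 21.8 TPM, SD, n = 24 each). Achl had a log2 change of -1.83, SE 0.10, with adjusted p = 3.92e-29, and the RNAi library was the lower one of 24 of 24 same-CT pairs. It was -1.89 in low-mt and -1.70 in high-mt libraries. Of 15 other tested genes whose start lay within 100 kb of that of Achl, 1 was called higher and 4 lower, and their median log2 change was -0.09. For all tested genes the shares were 11.3% higher and 10.7% lower, and the median was -0.02. Cpr51A, a cuticle protein gene that starts 92.2 kb away, was the one with a large change (2.59 TPM in RNAi and 7.84 TPM in control heads, log2 change -1.21, SE 0.12). The tested genes nearest to Achl on either side were phyl, called lower (log2 change -0.12, adjusted p = 0.0486), and Sin1, which did not pass (-0.06).

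Antibacterial peptide genes had the largest rises. All 7 members of the diptericin, attacin and drosocin list and all 4 cecropin genes rose, with median log2 changes of 6.73 and 5.63, and as many rose with TPM as deposited. Over all tested genes 11.3% were higher and 10.7% lower (4.70% and 55.7% as deposited). The level filter counted RNAi libraries, so genes near 0 in control heads could enter through them. AttD and CecB did so (control medians 0.15 and 0.325 TPM), and their rises are not independent of the filter. Dro, which encodes drosocin, had 200.4, 1394 and 4211 TPM in the lowest, median and highest RNAi library, against 1.01, 3.85 and 964 TPM in control heads, a log2 change of 7.50, SE 0.42, adjusted p = 1.43e-28. DptA, a diptericin gene, had 370.0, 3188 and 10053 TPM in RNAi heads, against 3.44, 9.55 and 3335 TPM in control heads, a log2 change of 7.26, SE 0.53. Both genes were higher in the RNAi library of every CT on the scaled values, yet the groups overlapped, because a few control libraries were themselves high. DptA was above 500 TPM in 22 of 24 RNAi libraries and in 2 control libraries, those of CT56 (3335 TPM) and CT24 (814 TPM), and above 100 TPM in 24 RNAi and 4 control libraries.

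The other diptericin gene, DptB, averaged 4628 ± 2263 TPM in RNAi and 302 ± 903 TPM in control heads (log2 change 6.77, SE 0.48). The attacin genes AttC (6.73), AttA (6.47) and AttB (5.43) rose by similar amounts on the log2 scale, while AttD, which had no more than 34 TPM in any RNAi library, rose by 0.92, SE 0.25. The call of AttD was lost in high-mt libraries (0.63, adjusted p = 0.130) and on day 1 (0.69, adjusted p = 0.163). The cecropins encode helical peptides that lyse bacteria. CecA1 had 63.1, 700.2 and 2719.8 TPM in RNAi heads, against 0, 2.35 and 784 TPM in control heads (log2 change 6.93, SE 0.45), CecA2 rose by 6.31, CecC by 4.94 and CecB by 4.20. RNAi libraries also differed among themselves: DptA ranged 27.2-fold over the 24 of them, with the highest at CT40 and the lowest at CT36, and DptB, AttA and AttC likewise had their lowest RNAi value at CT36.

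Among the drosomycin, metchnikowin and defensin genes, 4 of 7 tested members rose, against 11.3% of all tested genes, and 3 further members were under the level filter. Mtk, which encodes metchnikowin, reached the highest level (6120.0 ± 3362 TPM in RNAi and 251 ± 661 TPM in control heads, log2 change 6.50, SE 0.38). Drs, the antifungal drosomycin gene, had 125, 1255 and 5429 TPM in RNAi heads, against 11.4, 24.6 and 120.4 TPM in control heads, and the groups did not overlap (log2 change 5.45, SE 0.29). The Mtk-like gene CG43236 rose by 5.09, SE 0.33 and Def, the defensin gene, by 0.99, SE 0.29. The call of Def was lost in high-mt libraries (0.43, adjusted p = 0.516) and on day 1 (0.55, adjusted p = 0.381). The drosomycin-like genes did not follow Drs: Drsl5, at 495 TPM in RNAi and 482 TPM in control heads, had a log2 change of 0.17, SE 0.10 and adjusted p = 0.248, and Drsl2 one of 0.14, SE 0.16 and adjusted p = 0.619. Drsl4 had -0.45, adjusted p = 0.0433, and this call was lost when the libraries of 12 of the 24 CTs (26, 30, 32, 36, 42, 46, 50, 52, 56, 62, 64 or 68) were left out in turn.

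The Bomanins and other immune-induced (IM) peptides were the peptide list of highest summed TPM. Their counts stand beside 11.3% higher and 10.7% lower over all tested genes (4.70% and 55.7% as deposited). Of 18 tested members 17 rose and 1 fell, with a median log2 change of 3.09 (16 higher and 1 lower with TPM as deposited), and together the list held 34276, 50279 and 117848 TPM in the lowest, median and highest RNAi library, against 12380.1, 14486 and 18169 TPM in control libraries. IM1 had 1150.5, 5434 and 16378 TPM in RNAi heads, against 220.4, 336 and 491 TPM in control heads, a log2 change of 4.25, SE 0.16, adjusted p = 1.28e-40. IM2 had 3268, 6965 and 19575 TPM in RNAi heads, against 489, 759 and 1230.5 TPM in control heads, a log2 change of 3.44, SE 0.11. In both genes every RNAi library was above every control library, and the control library highest in DptA did not stand out, with IM1 at 334 TPM in the control library of CT56. IM18 (7.24, SE 0.46) and IM23 (6.29, SE 0.22) rose most, with control medians of 7.8 and 3.1 TPM, and CG5791 rose by 3.44. CG15068 and IM33, already at control means of 5372 and 2982 TPM, rose by 0.76 and 0.80, and CG30285 was the member that fell (168 TPM in RNAi and 251 TPM in control heads, log2 change -0.40).

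A pair of genes that the deposited table names as noncoding rose as much as the peptides. CR44404 is annotated as protein coding under the symbol IBIN, an infection-induced gene, and had 45.6, 772 and 1776 TPM in RNAi heads, against 0, 1.43 and 284 TPM in control heads (log2 change 7.42, SE 0.40). CR45045, likewise annotated as protein coding (CG45045, chromosome 3R, 17667572 to 17667825), had 276, 2743 and 7608 TPM in RNAi heads, against 1.55, 10.7 and 1436 TPM in control heads (log2 change 7.13, SE 0.47). The groups overlapped through control libraries at or above the lowest RNAi library, 1 for CR44404 and 2 for CR45045, and both genes were higher in 24 of 24 pairs.

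**Figure D2:**
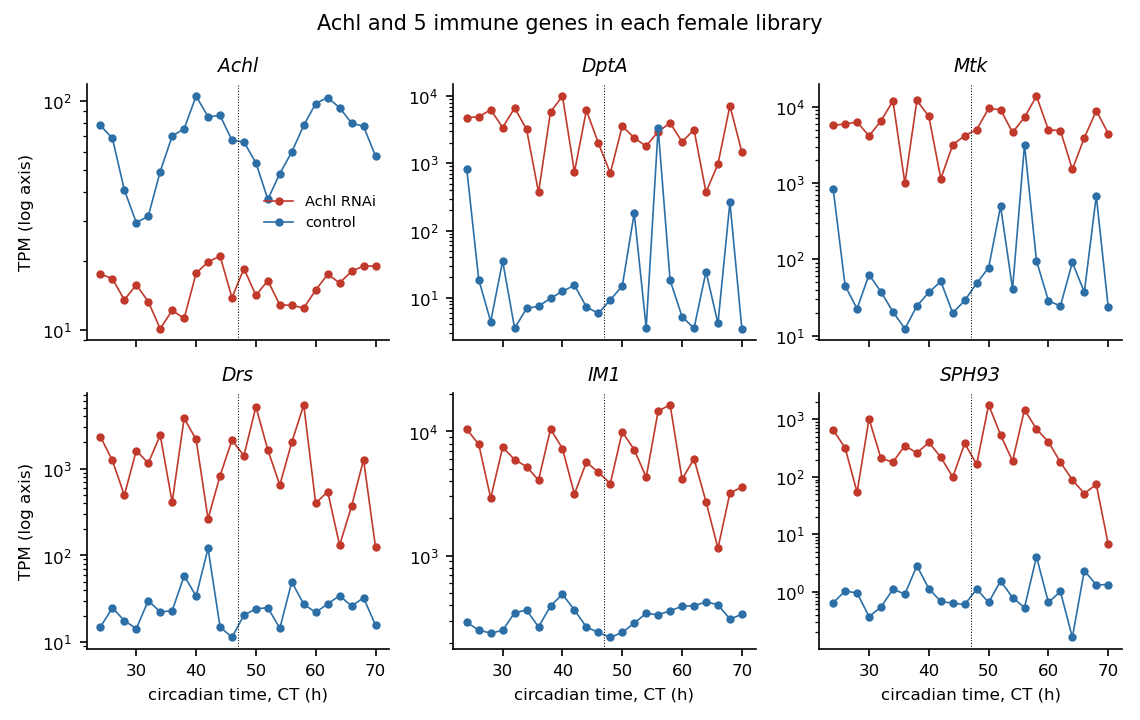
TPM (log axis) of Achl, DptA, Mtk, Drs, IM1 and SPH93 in each female library by circadian time, RNAi in red and control in blue, with a dotted line between the days. The RNAi and control points of Achl, Drs, IM1 and SPH93 do not overlap over the 24 CTs, while the control library of CT56 reaches the RNAi range in DptA and Mtk, and that of CT24 does in DptA.

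The genes of recognition and signalling upstream of the peptides were taken in turn. Of 10 tested peptidoglycan recognition genes 8 rose and 0 fell, with a median log2 change of 0.93 (7 higher and 2 lower with TPM as deposited). The shares over all tested genes were 11.3% higher and 10.7% lower (4.70% and 55.7% as deposited). The amidase gene PGRP-SB1 had 145, 1030.3 and 2094 TPM in RNAi heads, against 34.6, 73.6 and 915 TPM in control heads (log2 change 3.43, SE 0.22). PGRP-SC2, another amidase gene, rose by 4.10, SE 0.30 and the secreted receptor gene PGRP-SD by 3.15, SE 0.17. The receptor genes themselves rose less: PGRP-SA of the Toll branch had a log2 change of 1.15, and PGRP-LC of the Imd branch one of 0.67, SE 0.06 (104 ± 17.5 against 73.6 ± 9.16 TPM), higher in 24 of 24 pairs. The inhibitory members PGRP-LB, an amidase, and PGRP-LF, a decoy, rose by 1.01 and 0.85.

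Of 20 tested Imd signalling genes 3 rose and 3 fell, with a median log2 change near 0, against 11.3% higher and 10.7% lower among all tested genes. Those that rose were pirk, a feedback inhibitor of the pathway (16 TPM in RNAi and 8.65 TPM in control heads, log2 change 1.02, SE 0.13), Rel, which encodes Relish (0.87, SE 0.08), and the adaptor gene imd (0.31, SE 0.06). Rel had 71.3, 116 and 215 TPM in RNAi heads, against 47.8, 78.9 and 116 TPM in control heads, with 17 control libraries at or above the lowest RNAi library, but each RNAi library above its same-CT control on the scaled values. Tab2 (-0.24), Fadd (-0.19) and key (-0.14), a kinase partner, an adaptor and an IKK subunit, fell slightly. With TPM as deposited 3 members were higher and 14 lower, where 55.7% of all genes were lower, so the direction of the smaller changes rests on the scaling.

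Of 23 tested Toll signalling genes 8 rose and 1 fell (7 and 11 with TPM as deposited), with a median log2 change of 0.06. Over all tested genes 11.3% were higher and 10.7% lower (4.70% and 55.7% as deposited). The protease genes spirit (1.07, SE 0.14), Hayan (0.82, SE 0.10) and SPE, the enzyme that cleaves the ligand Spätzle (0.80, 319.9 TPM in RNAi and 197 TPM in control heads), rose. So did nec, a serpin gene that restrains the cascade (0.74, SE 0.09), the recognition gene GNBP1 (0.48, SE 0.06), and, by smaller amounts, Dif (0.32), cact (0.28) and dl (0.27), which encode the NF-kappaB factors and their inhibitor. The protease gene grass was the member that fell (-0.33, adjusted p = 0.0334), a call lost on leaving out some single CTs (0 to 1 members lower).

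Serpins, protease homologs and melanisation enzymes had 10 of 17 tested members higher and 0 lower (8 and 1 with TPM as deposited). The shares over all tested genes were 11.3% and 10.7% (4.70% and 55.7% as deposited). SPH93, a serine protease homolog (chromosome 2L, 17454263 to 17455923), had the largest rise of a gene whose groups did not overlap. It had 6.73, 241 and 1798 TPM in RNAi heads, against 0.16, 0.93 and 4.07 TPM in control heads, a log2 change of 7.03, SE 0.27, adjusted p = 7.45e-40. Its lowest RNAi value came at CT70, the last time point, 267-fold under its highest at CT50. Spn88Eb rose by 1.50, SE 0.14 (121 TPM in RNAi and 41.9 TPM in control heads), Spn42Dd by 0.72, Spn42Da by 0.36 and PPO2, a prophenoloxidase gene of blood cells, by 0.53.

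Acute-phase and stress genes also moved, in lists set beside 11.3% higher and 10.7% lower over all tested genes (55.7% lower as deposited). Tsf1, which encodes the iron carrier transferrin, had 724, 1235 and 3034 TPM in RNAi heads, against 156, 301 and 608 TPM in control heads, with no overlap (log2 change 2.36, SE 0.10, adjusted p = 1.03e-35). It was 1 of 3 higher members among 8 tested iron genes (2 higher and 5 lower with TPM as deposited), with the transporter gene Mvl (0.35) and ZnT86D (0.22). Of 12 tested JAK-STAT and Turandot genes 6 rose and 0 fell (3 and 4 with TPM as deposited). The thioester protein gene Tep2 had 254 TPM in RNAi and 158 TPM in control heads (log2 change 0.85, SE 0.07), and the humoral stress genes TotC, TotX and TotA had log2 changes of 1.55, 0.98 and 0.73, with TotC reaching 1102 TPM in 1 RNAi library and 523 TPM in 1 control library. The pathway's feedback target Socs36E had 0.13, and -0.04 with TPM as deposited.

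Blood cells make some of these peptides. Their markers, beside 11.3% higher and 10.7% lower over all tested genes (55.7% lower as deposited), moved as follows. Of 17 tested hemocyte markers 9 rose and 0 fell, with a median log2 change of 0.17, but with TPM as deposited 4 were higher and 4 lower. The phagocytic receptor genes eater (23.9 TPM in RNAi and 17.3 TPM in control heads, log2 change 0.57, SE 0.11) and NimC1 (0.49, SE 0.09) and the collagen genes vkg (0.35) and Col4a1 (0.30) were among them, while Hml, srp, Pxn and PPO1 did not pass (0.09, -0.05, -0.10 and -0.06). None of the 17 was at 0 in every library, and their summed level was 12447 to 25011 TPM in RNAi and 14534 to 24086 TPM in control heads, most of it from Nplp2. A bulk sample cannot tell a change in the number of cells of a type, blood cells or photoreceptors, from one in the RNA of each, and the part of blood cells in the immune rises was not tested. Of 7 tested fat body storage genes 1 was higher and 1 lower: Lsp1alpha (1.28 TPM in RNAi and 0.23 TPM in control heads) and CG16926 (210.0 TPM in RNAi and 414 TPM in control heads, log2 change -0.84, SE 0.16).

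Chaperones and folding factors of the endoplasmic reticulum, through which secreted proteins pass, were higher as a group in the scaled values: 19 of 26 members rose and 0 fell, with a median log2 change of 0.29, against 11.3% of all tested genes higher. With TPM as deposited 8 were higher and 4 lower. Within low-mt libraries 12 of 26 were higher and within high-mt libraries 14, against 7.18% and 12.9% of all tested genes (5.02% and 12.3% were lower). Cnx99A, which encodes calnexin, had 180.5, 269 and 351 TPM in RNAi heads, against 115, 209 and 281 TPM in control heads, a log2 change of 0.60, SE 0.06, and was higher in 24 of 24 pairs. The protein disulfide isomerase genes CaBP1 (0.59), ERp60 (0.42) and Pdi (0.39), the BiP chaperone gene Hsc70-3 (0.45, 245 TPM in RNAi and 202 TPM in control heads), the HSP90 chaperone gene Gp93 (0.41) and the translocon gene Sec61alpha (0.36) rose. The sensor genes Ire1 and PEK of the unfolded protein response rose by 0.21 and 0.14, and had 0.04 and -0.03 with TPM as deposited. Among 19 tested heat shock genes of other compartments 5 were higher and 2 lower (1 to 3 lower on leaving out single CTs), and Hsp22, a small mitochondrial chaperone gene, rose most (29.3, 44.3 and 65.9 TPM in RNAi heads, against 7.12, 14.8 and 34.9 TPM in control heads, log2 change 1.67, SE 0.17).

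ninaE, an abundant gene of the eye, fell in every RNAi library. It encodes Rh1, the rhodopsin of the outer photoreceptors (chromosome 3R, 19886255 to 19888206), and had 8991, 11974 and 17379 TPM in RNAi heads, against 23028, 34266 and 44131 TPM in control heads. Every RNAi library was below every control library, the RNAi mean was 36.1% of the control mean, and the log2 change was -1.28, SE 0.05, adjusted p = 3.73e-40, with -1.35 in low-mt and -1.18 in high-mt libraries. Of the other rhodopsin genes, Rh2 of the ocelli (-0.48, SE 0.04, 364 TPM in RNAi and 568 TPM in control heads), Rh6 (-0.44, SE 0.11) and Rh3 (-0.25, SE 0.05) fell by less, Rh4 (-0.16, SE 0.09, adjusted p = 0.245) and Rh7 (0.03, SE 0.07, adjusted p = 0.806) did not pass, and Rh5 was slightly higher (0.19, SE 0.05). With TPM as deposited Rh5 had 0.01, so its call rests on the scaling, while ninaE, Rh2, Rh3 and Rh6 were called lower either way.

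Other genes of the visual cascade moved in both directions. Their counts stand beside 11.3% higher and 10.7% lower over all tested genes (55.7% lower as deposited). Of 23 tested phototransduction genes 5 rose and 5 fell in the scaled values, with a median log2 change of -0.03, and with TPM as deposited 0 were higher and 16 lower (3 to 5 lower in scaled values on leaving out single CTs). The channel gene trpl had 193, 388 and 580.0 TPM in RNAi heads, against 475, 791 and 1127 TPM in control heads (log2 change -0.89, SE 0.06), while trp, which encodes its partner channel, was higher (0.33, SE 0.05, 1299 ± 322 against 1152 ± 212 TPM). The eye kinase gene inaC had a log2 change of 0.27, the scaffold gene inaD one of -0.24 and the arrestin gene Arr2, at 11159 TPM in RNAi and 13448 TPM in control heads, one of -0.10. Of 14 genes of chromophore supply and rhodopsin maturation 6 were higher and 2 lower, and the median member had a log2 change of 0.05 (3 and 8 with TPM as deposited, and 1 to 2 lower on leaving out single CTs). Those higher include ninaA, a chaperone for Rh1 (0.54), ninaG, an enzyme of chromophore synthesis (0.76, SE 0.08), and eys, which separates the rhabdomeres (0.58, SE 0.04), while pinta, a retinoid-binding protein gene, fell (-0.19, SE 0.04). Photoreceptors signal with histamine, and of 8 tested genes of that system 2 were higher and 4 lower (0 and 6 with TPM as deposited), among them the recycling enzymes e (-0.26, SE 0.04) and t (-0.22, SE 0.05) and the receptor ort (-0.25, SE 0.06). For t the change was -0.01 in low-mt and -0.54 in high-mt libraries.

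**Figure D3:**
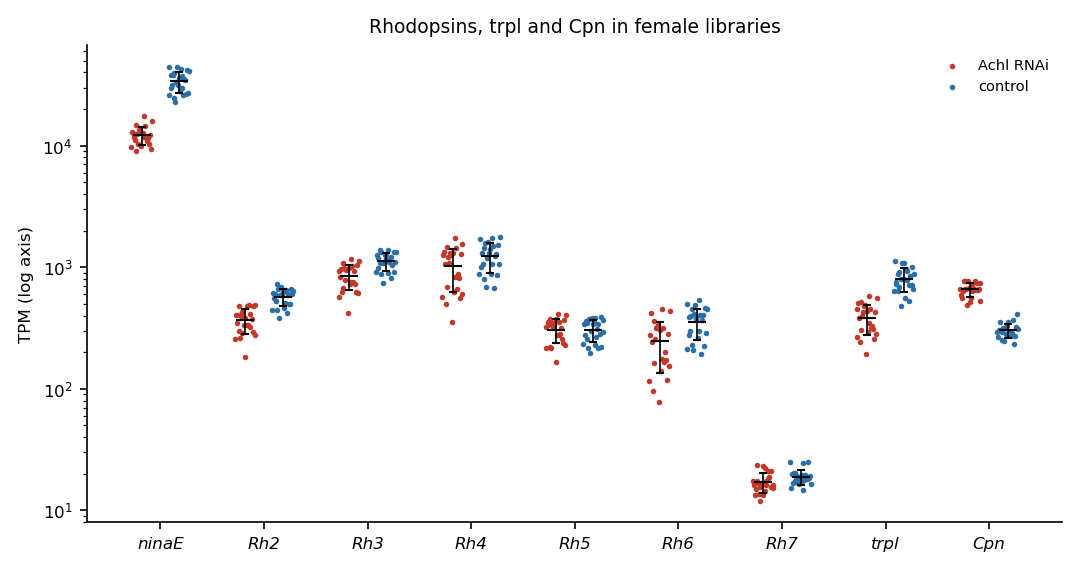
TPM (log axis) of the 7 rhodopsin genes, trpl and Cpn in 24 RNAi libraries (red, left of each pair) and 24 control libraries (blue, right), with the mean and SD in black. The groups separate in ninaE, which is lower in RNAi heads, and in Cpn, a photoreceptor calcium-binding protein gene, which is higher.

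Energy metabolism changed in a few enzymes. Its counts stand beside 11.3% higher and 10.7% lower over all tested genes (55.7% lower as deposited). Pepck, the key enzyme of gluconeogenesis, had 38.7, 220.0 and 506 TPM in RNAi heads, against 188, 470.2 and 986 TPM in control heads, a log2 change of -1.01, SE 0.15, adjusted p = 1.86e-08. CG45087 has the same coordinates and the same values in every library, so the value cannot be assigned to either gene. The second Pepck gene, CG10924, had a log2 change of -0.51, SE 0.13, the trehalose synthase gene Tps1 -0.33, the glucokinase-type gene Hex-C -0.39, and the trehalase gene Treh was higher by 0.29. In all 4 of 28 members were higher and 6 lower (1 and 19 with TPM as deposited). Of 26 tested lipid genes 6 were higher and 10 lower (4 and 16 with TPM as deposited). Those lower include AkhR, the receptor for the adipokinetic hormone (63.8 TPM in RNAi and 108 TPM in control heads, log2 change -0.59, SE 0.06), Lsd-2 (-0.40, SE 0.04) and Lsd-1 (-0.37), which coat lipid droplets, Fatp, a fatty acid transporter gene (-0.47, SE 0.04), and whd, which brings fatty acids into mitochondria (-0.48). By TPM as deposited Lsd-2 was below the control range in every RNAi library. The gap was narrow, with at most 356.56 TPM in RNAi and at least 360.46 TPM in control heads. Its overlap in scaled values was not tested. Desat1, LpR2 and the lipase gene bmm were higher by 0.48, 0.36 and 0.26.

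Insulin and starvation genes had 4 of 24 members higher and 3 lower, with 2 to 5 higher on leaving out single CTs and 0 higher and 12 lower with TPM as deposited, against 11.3% higher and 10.7% lower over all genes (55.7% lower as deposited). The insulin-like peptide genes parted, with Ilp2 at -0.23, SE 0.06 and Ilp6, made by the fat body, at 0.26, SE 0.06. The yolk protein genes, which the female fat body expresses, did not pass: Yp1 had 17236 ± 7124 TPM in RNAi and 18431 ± 2886 TPM in control heads (log2 change -0.01, SE 0.12, adjusted p = 0.968), Yp2 0.04, SE 0.16 and Yp3 -0.25, SE 0.16. Yp1 ranged from 7425 to 33219 TPM in RNAi heads, against 13914 to 24331 TPM in control heads. The satiety gene fit, also female-biased, had a log2 change of 0.95, SE 0.26, adjusted p = 0.00338, with 1.37 in low-mt libraries and 0.35 in high-mt libraries (adjusted p = 0.411), where the call was lost, as it was on day 1 alone (0.60, adjusted p = 0.254).

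Most changes in neural genes were small, and of all tested genes 11.3% were higher and 10.7% lower (55.7% lower as deposited). Of 36 tested neuropeptide genes 2 were higher and 9 lower (1 and 18 with TPM as deposited). CNMa, the precursor of the CNMamide peptide, had 2.98, 10.8 and 18.4 TPM in RNAi heads, against 11, 24.8 and 44.6 TPM in control heads, a log2 change of -1.20, SE 0.14, adjusted p = 6.11e-12; it fell in 24 of 24 pairs. SIFa (-0.34), Hug (-0.32), Dh44 (-0.23) and Mip (-0.19) fell less, and Ptth, the prothoracicotropic hormone gene, rose by 0.55, SE 0.12. Of 32 neuron and synapse markers 0 were higher and 7 lower, led by the cadherin gene CadN (-0.27, SE 0.03), and of 25 glia markers 2 were higher and 6 lower, among them the glutamate transporter gene Eaat1 (190.2, 225 and 251 TPM in RNAi heads, against 254, 294 and 359.9 TPM in control heads, log2 change -0.21, SE 0.05). With TPM as deposited these were 25 neuron and 22 glia markers lower, against 55.7% of all genes. Of 17 core clock genes 0 were higher and 2 lower in level (0 and 10 with TPM as deposited): Pdf, the clock neuron peptide gene (-0.17, SE 0.06), and its receptor gene Pdfr (-0.15, SE 0.03). Of 24 tested muscle genes 2 were higher and 5 lower (2 to 4 higher on leaving out single CTs, and 0 higher and 12 lower with TPM as deposited), with Mhc, the myosin heavy chain gene, at -0.19, SE 0.05.

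Genes of detoxification and of the body surface held members called in each direction, against 11.3% higher and 10.7% lower over all genes (55.7% lower as deposited). Of 77 tested cytochrome P450 genes 14 were higher and 22 lower (11 and 43 with TPM as deposited). Cyp6a17 stood apart, with 34.4, 50.3 and 61 TPM in RNAi heads, against 4.54, 5.96 and 9.42 TPM in control heads, no overlap and a log2 change of 2.96, SE 0.11, adjusted p = 4.29e-40. Cyp4d21, also called sxe1 (1.22, SE 0.13), and Cyp4p2 (1.03, SE 0.10) were higher, while Cyp6a8 (-0.94, SE 0.10) and Cyp4ac2 (-0.92, SE 0.10) were lower. Of 30 glutathione S-transferase genes 4 were higher, led by GstE8 (0.68, SE 0.06), and 6 lower, led by GstT1 (-0.37, SE 0.05), and with TPM as deposited 1 and 16. Odorant binding protein genes had 7 higher and 5 lower of 33 (3 and 12 with TPM as deposited): Obp56h rose by 1.22, SE 0.08 and Obp56d had -0.51, SE 0.07 (786 TPM in RNAi and 1238 TPM in control heads). Of 32 tested cuticle protein genes 1 was higher and 8 lower (1 and 17 with TPM as deposited), while 88 further members were under the filter, 13 of them at 0 in every library.

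Housekeeping classes had few called members. Of 85 tested cytosolic ribosomal protein genes 1 was higher and 9 lower, of 73 mitochondrial ribosomal protein genes 1 and 3 (1 to 8 lower on leaving out single CTs), of 68 nuclear oxidative phosphorylation genes 3 and 3 (1 to 4 higher on leaving out single CTs), and of 31 proteasome genes 4 and 0, each at or under the shares of 11.3% higher and 10.7% lower over all genes, save proteasome genes at 4 of 31. With TPM as deposited 40 of the 85 cytosolic ribosomal protein genes were lower and 1 higher, where 55.7% of all tested genes were lower and 4.70% higher. Mitochondrially encoded transcripts were called higher in 8 of 22 cases. mt:ND4L had 7.57, 91.3 and 1189 TPM in RNAi heads, against 0.73, 7.58 and 177 TPM in control heads, with a change of 7.26 (log2) within the high-mt set and 0.74 within the low-mt set. Within day 1 mt:ND4L had 216 to 1189 TPM in high-mt RNAi libraries, against 0.73 to 6.88 TPM in high-mt control libraries, and 89.7, 92.9 and 305 TPM in low-mt RNAi libraries, against 108 and 115 TPM in low-mt control libraries, so the groups separated in the high-mt set and overlapped in the low-mt set of the same day. In the list 13 of 22 members were called higher within high-mt libraries and 0 within low-mt libraries, against 12.9% and 7.18% of all tested genes.

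**Figure D4:**
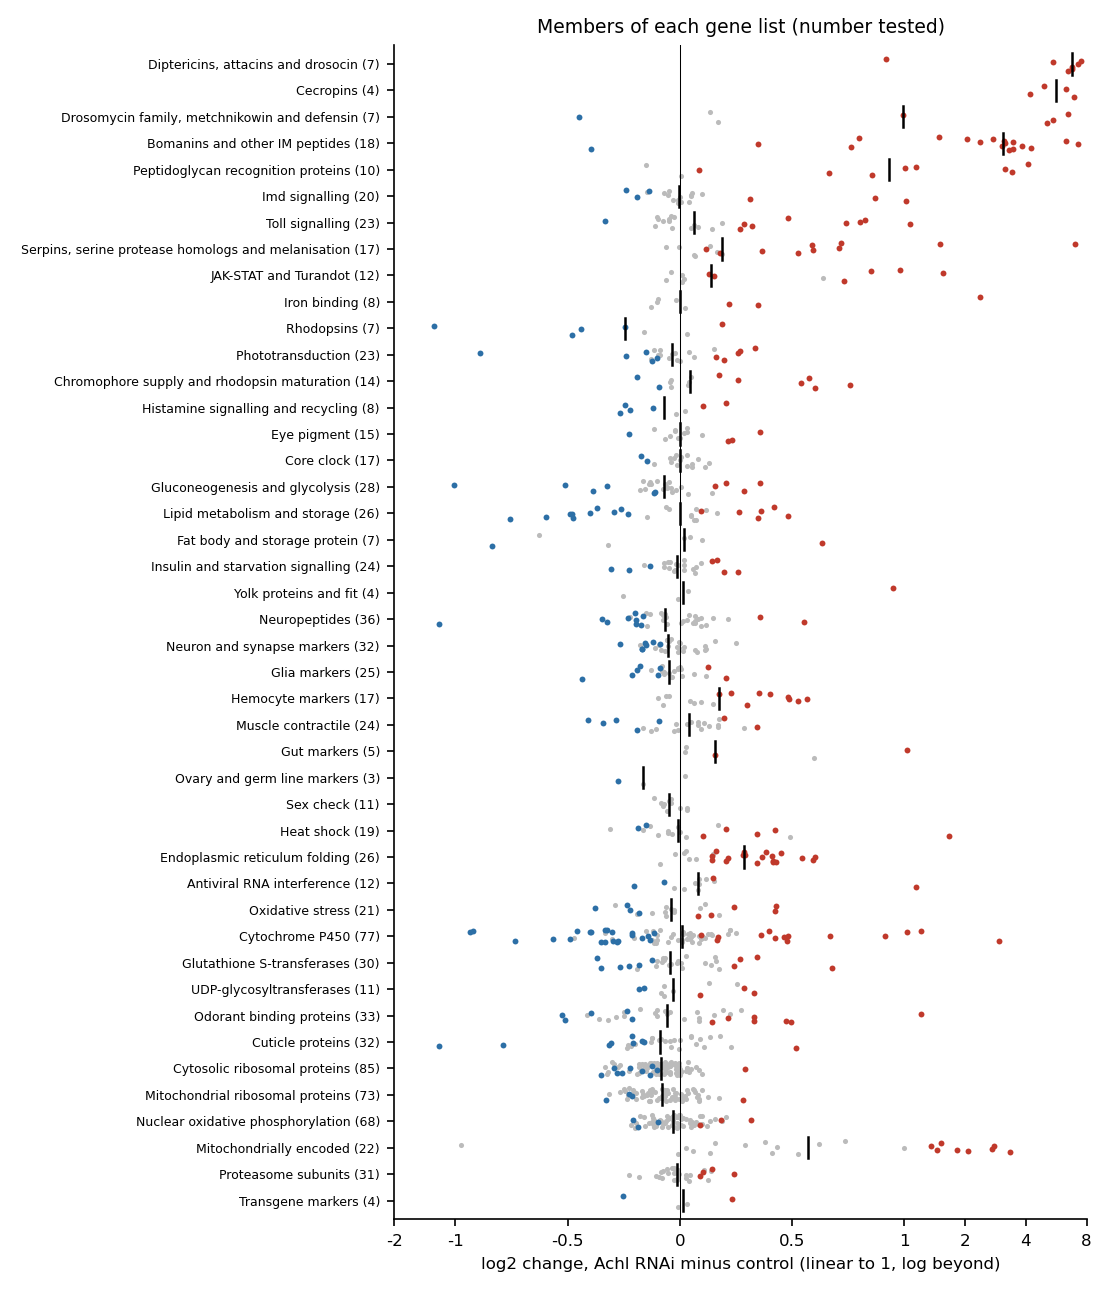
Log2 change (RNAi minus control, linear to 1 and logarithmic beyond) of every tested member of 44 gene lists, with the number tested in brackets. Red points were higher and blue points lower in RNAi heads, grey points did not pass, and black bars are medians; the medians of the diptericin, cecropin and Bomanin lists lie furthest to the right, at 6.73, 5.63 and 3.09.

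The remaining lists had few or small changes, beside 11.3% higher and 10.7% lower over all tested genes (55.7% lower as deposited). Of 21 tested oxidative stress genes 5 were higher (3 to 6 on leaving out single CTs) and 4 lower (1 and 13 with TPM as deposited), among them Duox, the dual oxidase gene (-0.38), and Gclc, for glutathione synthesis (-0.23). Of 15 eye pigment genes 3 were higher and 1 lower (0 and 6 with TPM as deposited), of 12 antiviral genes 2 and 2 (1 and 5), and of 11 UDP-glycosyltransferase genes 3 and 2 (2 and 5). CG12970, of the antiviral list, rose by 1.14, SE 0.11. Few markers of tissues outside the head passed the level filter: 5 of 18 gut markers did, with 2 higher, among them the amylase gene Amy-p (3.32 TPM in RNAi and 0.554 TPM in control heads), and 3 of 20 ovary markers, with 1 lower. Of 11 sex check genes 0 passed the test in the scaled values (9 lower as deposited), and roX2, a male RNA, reached at most 1.43 TPM in RNAi and 1.19 TPM in control females. Of 4 markers of transgenic strains v was higher (0.23) and y lower (-0.25).

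The genes of largest fall other than Achl, Cpr51A, ninaE, CNMa, Pepck, Cyp6a8, Cyp4ac2 and trpl have few described roles. CG5160 (log2 change -1.06, SE 0.05), CG11200 (-1.03, SE 0.05) and CG16885 (-0.91, SE 0.09) were below the control range in every RNAi library by TPM as deposited. For CG16885 the gap was narrow, with at most 9.1 TPM in RNAi and at least 9.44 TPM in control heads. CG11200 had 18.7, 38.2 and 52 TPM in RNAi heads, against 66, 86.5 and 111 TPM in control heads. CG9377 (-1.10, SE 0.18), CG33926 (-1.05, SE 0.17) and CG8654 (-1.02, SE 0.11) overlapped between groups, with CG8654 at 101 ± 41.6 TPM in RNAi and 217 ± 46 TPM in control heads. Of the 20 genes at least 2-fold lower, 15 are annotated as protein coding and 3 as noncoding RNA genes.

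To ask whether the effect was the same on both days, the RNAi minus control change of CT48 to CT70 was set against that of CT24 to CT46. The difference passed in 124 genes (1.17%), 67 with a more positive (0.634%) and 57 with a more negative change on day 2 (0.539%). The main immune genes were not among them, although imd was (0.13 on day 2 and 0.49 on day 1, adjusted p = 0.00703). DptA had a log2 change of 6.50 on day 2 and 8.02 on day 1 (adjusted p of the difference = 0.709), IM1 4.07 and 4.44 (adjusted p = 0.769), ninaE -1.38 and -1.18 (adjusted p = 0.289), and Achl -1.88 and -1.78 (adjusted p = 0.899). The 6 genes of lowest p were CR45184 (0.08 and -0.79), CG46312, mt:ND6 (0.28 and 5.18), snoRNA:Psi28S-1192d, CR40469 (-0.52 and 0.84) and mt:ND4L (0.66 and 5.99). CG46312 had a median of 0 TPM in both groups, with a highest value of 3.54 TPM in RNAi and 42.2 TPM in control heads. Hsp22 also differed, with 2.11 on day 2 and 1.23 on day 1 (adjusted p = 0.0369). The count rests on single time points: it was 73, 66, 191, 70, 79 and 74 without the female libraries of CT24, CT30, CT38, CT50, CT52 and CT54 in turn.

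**Figure D5:**
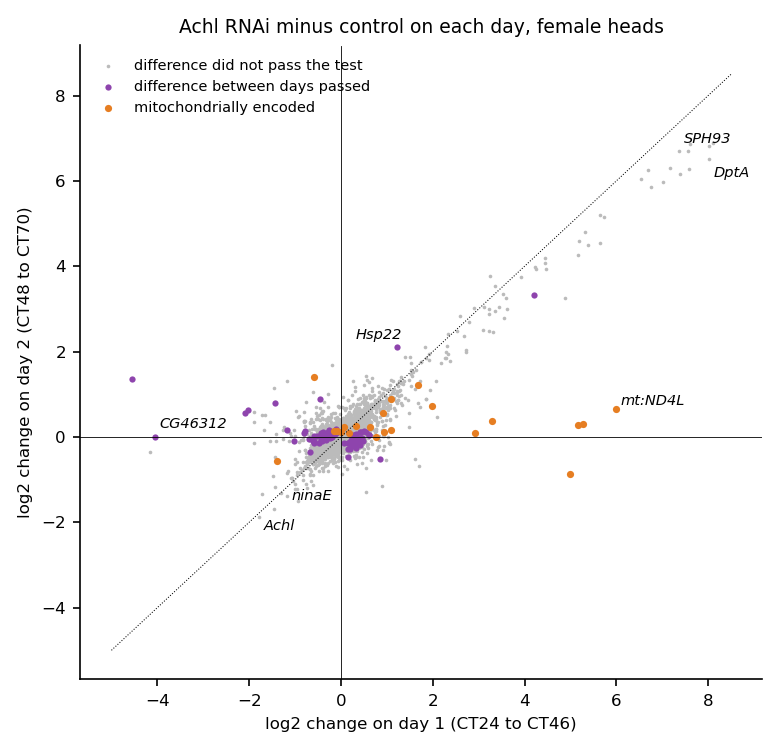
Log2 change (RNAi minus control) of each tested gene on day 2 (vertical axis) against that on day 1 (horizontal axis) in female heads. Mitochondrially encoded genes are orange and other genes whose difference between days passed are purple; mt:ND4L lies at 5.99 on day 1 and 0.66 on day 2, while DptA lies at 8.02 on day 1 and 6.50 on day 2; the dotted line marks equal change.

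The female effect was set against that in male heads, in the same fit. Of 10568 genes 1641 (15.5%) had an RNAi effect that differed between the sexes, 828 with a more positive (7.83%) and 813 with a more negative change in females (7.69%). The 6 genes of lowest p were CG10073, CG7227, CG16995, CG30091, CG11426 and CG16926. CG11426 rose in females: 215 ± 96 TPM in RNAi and 26.4 ± 11 TPM in control heads, a log2 change of 3.09 against 0.69 in males (difference 2.40, SE 0.22, adjusted p = 6.52e-15). CG10073 (0.28 in females and 3.12 in males) and CG7227 (0.11 and 1.62) did not pass in females, and CG16926 fell less in females (-0.84) than in males (-3.29). Of 106 tested members of the immune lists 27 differed between the sexes, 13 with a more positive and 14 with a more negative change in females. Among the immune genes SPH93 rose by 7.03 in females and 9.50 in males (adjusted p = 6.58e-07), Drs by 5.45 and 7.69 (adjusted p = 1.87e-05) and DptB by 6.77 and 8.72 (adjusted p = 0.0349), and Spn88Eb had 1.50 and 3.55 (adjusted p = 3.13e-13), while PGRP-SB1 rose by 3.43 and 2.51 (adjusted p = 0.0329), IM2 by 3.44 and 2.98 (adjusted p = 0.0326), and the iron carrier gene Tsf1 rose more in females (2.36 and 0.92, adjusted p = 5.3e-13). DptB averaged 4628 TPM in RNAi and 302 TPM in control females, against 2613 TPM in RNAi and 23.7 TPM in control males. CNMa fell in females (-1.20) and had -0.19 in males (adjusted p = 5.26e-05). Its level was low in males, at 2.21 TPM in RNAi and 3.01 TPM in control heads, against 9.92 and 26.3 TPM in females. The part of this low male level in the difference was not tested. Of the 133 genes at least 2-fold higher in females, 111 were also called higher in males and 2 lower, set against shares in males of 16.9% (higher) and 16.5% (lower) among the 10568 genes. The male libraries had at least 65432 TPM of mt:lrRNA, above the limit that 15 RNAi and 14 control female libraries were under, and its part in these differences was not tested.

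Within the RNAi group the peptide level was compared with other changed genes, using an index (the mean log2 scaled value of DptA, DptB, Dro, AttA, AttC, CecA1 and Mtk) and keeping low-mt and high-mt libraries apart. None of 6 relations passed. Over the 15 low-mt libraries Pearson's r with ninaE was 0.01 and Spearman's rho -0.09 (permutation p = 0.976 and 0.763, two-sided, 100000 resamples, adjusted p = 0.976 and 0.916). Over the 9 high-mt libraries they were -0.57 and -0.43 (exact permutation p = 0.116 and 0.25, adjusted p = 0.666 and 0.75), and r was -0.09 without the 2 libraries farthest from the median index. For Achl r was -0.31 in low-mt and 0.36 in high-mt libraries, and for Pepck -0.14 and -0.21 (lowest permutation p of these 4 = 0.255, for Achl in low-mt libraries).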

How the data were processed

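Poly(A) RNA from pooled heads was sequenced as stranded libraries, per the labels' protocols. The deposited table gives TPM per gene for 17698 genes, and the submitters' processing notes name STAR, RSEM and dm6, with versions not given in the sources used here. TPM holds no read depth, so no counting interval can be given, and 1 abundant class lowers every other value in a library.

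From the deposited TPM, libraries were scaled by median-ratio factors over 9763 genes above 0 in every library. Genes that reached 1 TPM in 24 or more of 96 libraries were kept, and log2 values with a pseudocount of 1 were fitted with limma 3.58.1 in R 4.3.3 (trend and robust options), with a level and 24 h cosine and sine terms for each of the 4 groups. The filter counted all 4 groups, so a gene near 0 in 1 group could pass through another. The adjusted p threshold was 0.05. The step was tested on simulated data. Libraries of the same CT were set side by side, and their deviations from the group means were checked for pairing. Biotypes and coordinates came from an annotation that matched 17560 genes.

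The members and lists were chosen with earlier results of these data known. Named genes were the 15 largest called changes in each direction (mean of at least 5 TPM, same direction in at least 20 of 24 pairs), up to 4 members of lowest p in each list with every member of lists of up to 10 genes, and the 6 genes of lowest p for each difference between days or sexes. Further genes, mostly list members, were named after their values were seen. Alternatives were no scaling, median centring, other pseudocounts and filters, other models, single days, the mt:lrRNA sets and leaving out each CT. No sequence was analysed here.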

Additional observations from a re-analysis of the deposited data

Results flagged for a closer look

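The effect of Achl RNAi differed between the sexes, by the difference of both contrasts in the same fit, in 85 of the 208 named genes. Over all 10568 tested genes it differed in 1641 (15.5%). Some named genes were picked by low p in this same test or by large female changes, so their share cannot be set against that of all genes. Only some of the 85 are given below, with the immune genes first. Values are the female minus the male log2 change, so a negative value means a lower change in females. Among immune genes it was -2.47 for SPH93, -2.24 for Drs and -1.95 for DptB, each of which rose in both sexes, and also negative for Spn88Eb (-2.05) and AttD (-1.21). In levels DptB averaged more in RNAi females (4628 TPM) than in RNAi males (2613 TPM), and more in control females (302 TPM) than in control males (23.7 TPM). The difference was positive for other immune genes, at 1.45 for Tsf1, 0.92 for PGRP-SB1, 0.49 for GNBP1, 0.46 for IM2 and 0.33 for Spn42Dd. Of 106 tested members of the immune lists 27 differed, 13 with a more positive and 14 with a more negative change in females. Among genes that fell in females it was -0.19 for ninaE, -1.0 for CNMa, -1.77 for CG9377, -0.37 for CG5160, -0.36 for CG11200 and -0.39 for Cyp6a8, and positive, so that the fall was larger in males, for CG33926 (1.05) and for Pepck and CG45087, which share their values (0.60). CG9377 was lower in RNAi females (-1.10) and higher in RNAi males (0.67).

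The genes of lowest p for this difference were CG10073 (-2.83), CG7227 (-1.51), CG16995 (1.75), CG30091 (-1.81), CG11426 (2.40) and CG16926 (2.45). It was also called for CR45184 (-0.38), CG46312 (-3.62), mt:ND6 (3.24) and mt:ND4L (3.52).

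The female effect differed between days, given as the day 2 minus the day 1 log2 change, for CR45184 (0.88), CG46312 (4.06), mt:ND6 (-4.90), snoRNA:Psi28S-1192d (2.64), CR40469 (-1.36) and mt:ND4L (-5.33). For mt:ND4L the female effect was 7.26 within the high-mt set and 0.74 within the low-mt set, and on day 1 itself the groups separated in high-mt and overlapped in low-mt libraries.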

How the results depend on the processing

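The count of genes lower and higher rested on scaling: without it 497 were higher and 5885 lower, and of 1652 genes called both ways 1628 kept their direction. Day 1 alone gave 702 higher and 563 lower, day 2 alone 746 and 504, and low-mt libraries 759 and 530, with fewer libraries in each fit, while high-mt libraries gave 1359 and 1305. The 20 genes at least 2-fold lower became 32 without scaling, 41 with a pseudocount of 0.1, 5 with one of 5, 13 in low-mt and 35 in high-mt libraries (the cause was not tested). On leaving out both female libraries of each CT in turn, 1096 to 1248 genes were higher, 1032 to 1210 lower, 126 to 138 higher by 2-fold or more, 15 to 23 lower by 2-fold or more, and 66 to 191 differed between days.

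Deviations of same-CT libraries correlated at -0.42 to 0.61 (median 0.24), over 0.1 in 18 of 24 pairs, and 4 of 24 libraries correlated best with their own CT, so the CT numbers were not taken to pair the samples. With CT as a replicate block 1086 genes were higher, 1005 lower, 128 higher by 2-fold or more and 19 lower by 2-fold or more, and of 208 named genes 203 kept their call.

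Signs turned without scaling for Tep4 (-0.028), CarT (-0.073), LManII (-0.022), loqs (-0.032), Rpn5 (-0.088), Prosalpha5 (-0.036) and Rpt3 (-0.074), on day 2 for CR45184 (0.081), in low-mt libraries for GILT1 (0.0020) and ATPsyndelta (0.0083), and in high-mt libraries for RpL5 (0.014); none of these values passed. CG46312 had no change (0) on day 2 and in low-mt libraries. Of the 208 named genes 46 lost their call in low-mt and 33 in high-mt libraries, with fewer libraries in each fit. Calls of AGO2, ATPsyndelta, Drsl4, Pu, Vago, mRpL18 and mRpS25 were lost without some single CTs. A planned count of promoter motifs was not run. TPM gives no depth, so low genes carry an unknown counting error.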

Other observations

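Genes outside the lists above were picked after their values were seen, and their values are descriptions. Gnmt, which encodes glycine N-methyltransferase, had 19.9, 97.4 and 279 TPM in the lowest, median and highest RNAi library, against 1.89, 5.94 and 73.6 TPM in control heads. Its log2 change was 3.52, SE 0.24 in females and 0.58 in males (adjusted p of the difference = 2.74e-10, limma). In levels Gnmt averaged 114 TPM in RNAi and 12.6 TPM in control females, against 214 TPM in RNAi and 159 TPM in control males, so the mean of RNAi females was below that of control males. Sardh, for sarcosine dehydrogenase, had 1.54 in females and 0.43 in males, and Nmdmc, a folate enzyme of mitochondria, had 1.14 and 0.08.

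Several abundant or little described genes separated the groups completely. Cpn had 488, 659 and 774 TPM in RNAi heads, against 234, 293 and 412 TPM in control heads. GNBP-like3, related to glucan-binding recognition proteins, had a log2 change of 4.32, SE 0.18, CG4757 one of 5.06, SE 0.20 and CG18067 one of 2.50, SE 0.12, at 7556 TPM in RNAi and 1338 TPM in control heads. JhI-21, an amino acid transporter gene, rose by 1.29, SE 0.09, and shg, the E-cadherin gene, had -0.44, SE 0.03 in females and -0.05 in males (adjusted p of the difference = 2.88e-13). CG42753 was at a median of 0 TPM in RNAi and 1.73 TPM in control heads, and CR43767 at 0.105 TPM in RNAi and 2.6 TPM in control heads. Both passed the level filter through control libraries, so their falls are not independent of it. Their separation lies at low TPM, where the counting error is unknown. For CG42753 it was at most 0.17 TPM in RNAi and at least 0.38 TPM in control heads.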
